A study of Mus musculus with 15 samples.

Results

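The receptors of the interleukin-1 family and their shared adaptor were followed through all 15 RNA-seq libraries of group 2 innate lymphoid cells (ILC2s) and of their bone marrow progenitors (ILC2p). The 9 members were chosen by gene symbol, as 8 receptor genes (*Il1rl1*, *Il1rap*, *Il18r1*, *Il18rap*, *Il1r1*, *Il1r2*, *Il1rl2* and *Sigirr*) and the adaptor gene *Myd88*, and each was found once among 24690 gene entries (24089 symbols). The ILC2s were sorted from the gut lamina propria (LP) as CD45+Lin-CD127+Sca-1+CD25+KLRG1+ cells of C57BL/6 *Tgfbr2* f/f ER-Cre+ mice aged 8 to 12 weeks, 1 day after 5 daily treatments with oil (WT, 4 libraries) or with 1 mg of tamoxifen (Tgfbr2-/-, 3 libraries). The ILC2p were sorted as CD45.2+Lin-CD127+α4β7+CD25+ cells from the bone marrow (BM) of mixed chimeras, in which irradiated CD45.1 hosts had received marrow of such mice beside CD45.1 marrow 6 weeks earlier (4 WT and 4 Tgfbr2-/- libraries). Animals of both genotypes therefore carried the floxed alleles and the Cre, WT animals received the oil only, and the tamoxifen-activated Cre is not restricted to ILC2s. Each cell type was sequenced in 2 experiments, 1 and 2, and replicates are numbered within them. Each experiment held 1 cell type, so experiment 1 or 2 of the LP libraries is not that of the ILC2p libraries. Tissue, gate, mouse model and experiment all change with the cell type and cannot be told apart from it. Nothing in the labels says that libraries of a group came from separate animals, so p-values measure the spread between libraries. Total counts on genes were 12167066 to 32114265 per LP library and 10957021 to 35961215 per BM library.

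Receptors of this family carry a cytoplasmic TIR domain. A ligand-binding chain meets an accessory chain, the paired TIR domains recruit MyD88, and IRAK kinases and TRAF6 pass the signal on to NF-κB and MAP kinases. ST2, the product of *Il1rl1*, binds the alarmin IL-33 and shares the accessory chain *Il1rap* with the IL-1 receptor *Il1r1* and the IL-36 receptor *Il1rl2*, whereas *Il18r1* and *Il18rap* form the IL-18 receptor, *Il1r2* is a decoy without a TIR domain and *Sigirr* is an inhibitory member. ILC2s are known for their response to IL-33 through ST2.

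Of the 9 genes, 6 lie together on chromosome 1 of NCBIM37 (mm9), all on the plus strand and protein-coding, within 466938 bases. They run from *Il1r2* (chr1:40141613-40182064) through *Il1r1* (chr1:40281925-40373043), *Il1rl2* (chr1:40381472-40422316), *Il1rl1* (chr1:40486415-40522260) and *Il18r1* (chr1:40522397-40557699) to *Il18rap* (chr1:40572207-40608550). Only 136 bases separate the annotated end of *Il1rl1* from the start of *Il18r1*. *Il1rap* lies on chromosome 16, *Sigirr* on chromosome 7 and *Myd88* on chromosome 9.

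The results turn on *Il1rl1* and *Il1r2*, the members that differed by genotype in ILC2p, so the 250 bases before a start site of each are shown, from the RefSeq starts of GRCm38.p6 placed on the plus strand of NCBIM37 by an exact match. Capitals mark matches to AGATAA, also with T as its first or G as its last letter, on either strand, letters that GATA factors, which include the ILC2 regulator GATA3, are known to bind.
Il1rl1: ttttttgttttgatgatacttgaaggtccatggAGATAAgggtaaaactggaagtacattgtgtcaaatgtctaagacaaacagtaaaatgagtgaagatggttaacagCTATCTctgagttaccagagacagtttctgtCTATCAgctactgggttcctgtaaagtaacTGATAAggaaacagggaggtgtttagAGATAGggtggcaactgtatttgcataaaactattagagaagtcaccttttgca
Il1r2: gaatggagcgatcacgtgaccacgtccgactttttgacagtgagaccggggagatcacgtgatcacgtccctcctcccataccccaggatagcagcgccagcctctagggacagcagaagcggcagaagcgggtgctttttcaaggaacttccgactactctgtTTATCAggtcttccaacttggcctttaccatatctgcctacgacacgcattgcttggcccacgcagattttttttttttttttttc
The *Il1rl1* window (chr1:40486165-40486414) ended at the base before the annotated gene and overlapped no annotated gene. It held 5 matches. The *Il1r2* window (chr1:40142688-40142937) lay within the annotated span of *Il1r2* and overlapped an exon of the gene *Gm16894*. It held 1 match. Of 32851 promoter windows of this length, 26.5% held at least 1 match and 0.0426% held 5 or more. A second RefSeq start of *Il1rl1*, whose window lies inside the gene, had 1 match. These are counts of letters, and no binding was measured in these libraries.

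Levels are given below as CPM, read counts scaled to the library size on one TMM scale over the 15 libraries, which compares libraries for a gene. RPKM, the deposited value per length, compares genes within a library. The counts cover whole genes, so the membrane-bound and the soluble form of ST2 are not separated. The gene length implied by the deposited counts and RPKM of *Il1rl1* was 4006 to 5370 bases over the libraries, so it was not 1 fixed length. It was 1773 to 5633 bases for *Il18r1*, 3028 to 4223 for *Il1rap* and 4519 to 4808 for *Il1r1*, and did not vary for the other members, so RPKM of these 4 genes moves with that length as well as with the counts.

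The targeted gene was examined first. *Tgfbr2*, which encodes the TGF-β receptor chain TβR2, was at 172, 262, 147 and 206 CPM in WT, against 206, 184 and 96.1 CPM in Tgfbr2-/- LP ILC2s, and at 0.714, 233, 107 and 188 CPM in WT against 87.2, 130, 30.8 and 218 CPM in Tgfbr2-/- ILC2p, in the order of experiments 1 and 2. The groups overlapped in both cell types, and the 4 ILC2p libraries of WT include the lowest value of all. Counts over the whole transcript need not register the deletion of a part of it, so libraries are called by their labels below.

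ILC2p libraries also differed in a second way that bears on every member of moderate level. Among genes with a median of 50 CPM or more in the other libraries of a group, between 0.46% and 16.2% were below 1 CPM in a given ILC2p library (median 7.32%), and between 0% and 0.359% in a given LP library. The share moved with the genotype in ILC2p. It was 13.9% and 1.86% in WT against 14.8% and 16.2% in Tgfbr2-/- libraries of experiment 1, and 1.14% and 0.46% in WT against 3.84% and 10.8% in those of experiment 2, so every Tgfbr2-/- library was above every WT library of its experiment. Its part in the genotype differences of ILC2p given below was not tested. Members below 1 CPM in this way were *Sigirr* in WT replicate 1 of experiment 1, *Myd88* in WT replicate 2 and both Tgfbr2-/- replicates of experiment 1, and *Il1rap* in Tgfbr2-/- replicate 2 of each experiment. No member did so in an LP library.

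**Figure D1:**
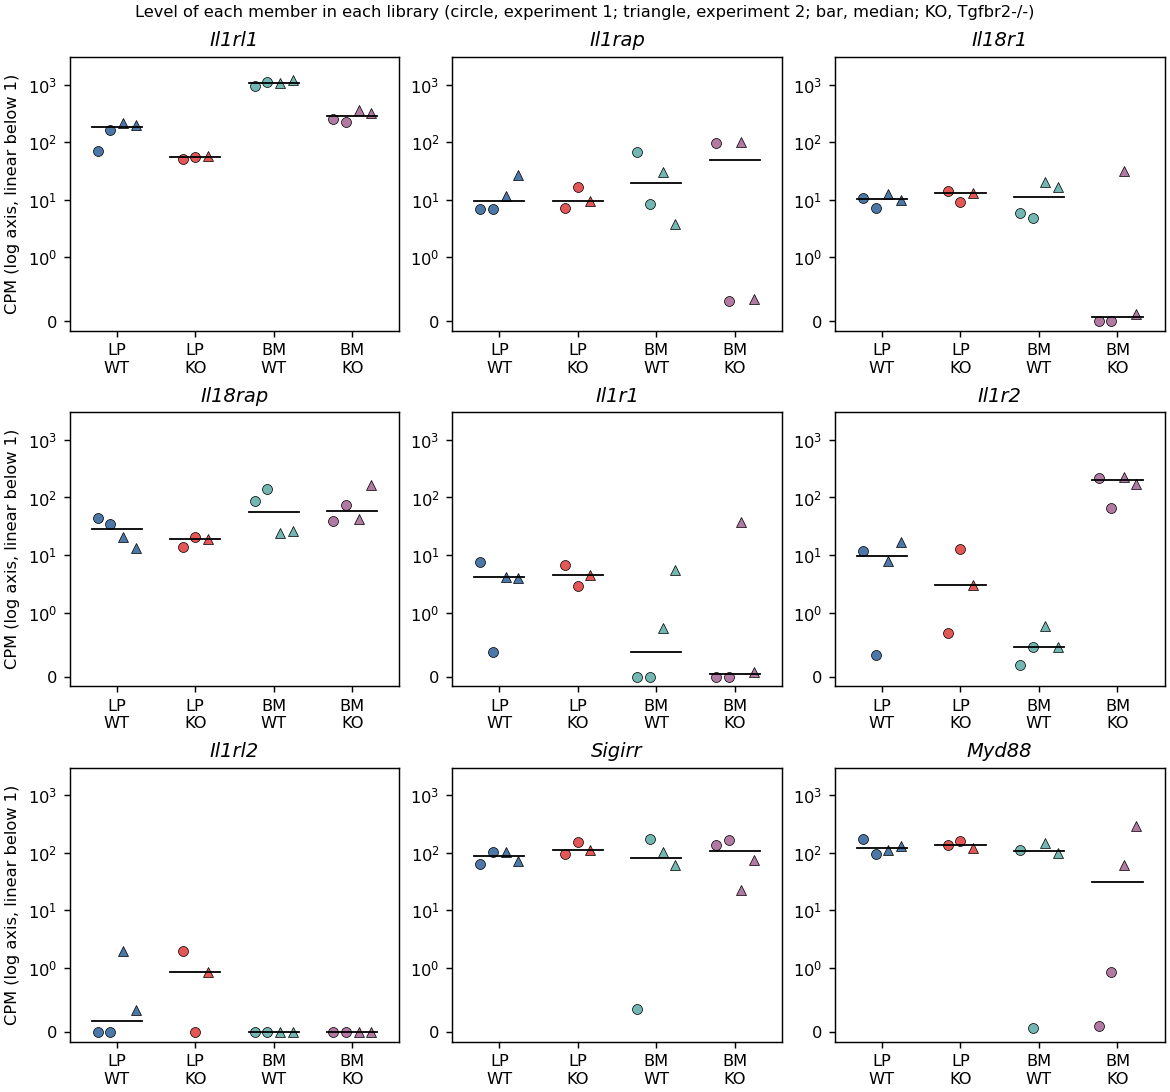
CPM of the 9 members in each library by group, on an axis that is logarithmic above 1 CPM and linear below, with the experiment shown by the symbol and the group median by a bar. *Il1rl1* is the member with 4 compact groups, *Il1r2* stands above 64 CPM only in Tgfbr2-/- ILC2p, and most other members scatter widely within the ILC2p groups.

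*Il1rl1* was the most abundant receptor of WT ILC2p per length. It was at 197 and 269 RPKM in experiment 1 and 238 and 301 RPKM in experiment 2, above every other member in each of these libraries. The second in the order of medians, *Myd88*, ranged from 0.0365 to 87.5 RPKM. *Il1rl1* made up 65.1% to 85.4% of the summed RPKM of the 8 receptors in WT ILC2p, 17.2% to 25.5% in Tgfbr2-/- ILC2p, 20.5% to 44.5% in WT and 11.1% to 15.2% in Tgfbr2-/- LP ILC2s. The 4 ranges did not overlap, apart from those of Tgfbr2-/- ILC2p and WT LP ILC2s. The sum includes *Il1r2*, at 25.5% to 55.0% of it in Tgfbr2-/- ILC2p against 0.0555% to 0.205% in WT ILC2p. The share of *Il1rl1* there thus moves with the level of *Il1r2* as well as with its own.

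In WT LP ILC2s *Myd88* (53.1 to 90.9 RPKM), *Sigirr* (32.2 to 60.3 RPKM) and *Il1rl1* (15.01 to 58.9 RPKM) led the order, and the 3 ranges overlapped. In Tgfbr2-/- LP ILC2s *Il1rl1* (12.3 to 14.9 RPKM) lay below *Sigirr* (54.8 to 81.6 RPKM) and above *Il18r1* (2.84 to 6.70 RPKM) without overlap. In Tgfbr2-/- ILC2p *Il1r2* had the highest median, 130 RPKM with a range of 46.0 to 177, and overlapped *Il1rl1* (39.3 to 82.1 RPKM), which overlapped *Sigirr* (11.9 to 81.0 RPKM). Every other receptor had a median of 11.8 RPKM or less in each group, and *Il1r1* and *Il1rl2* were the last of the order in all 4 groups.

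**Figure D2:**
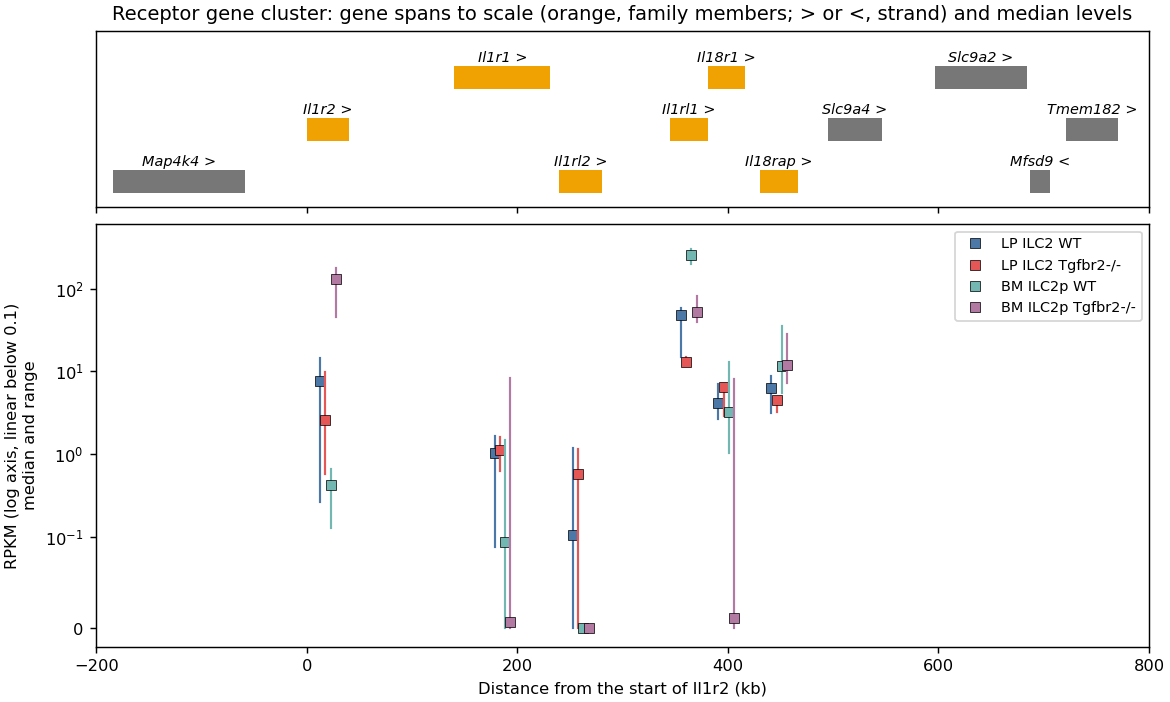
The 6 members of the chromosome 1 cluster and their neighbours drawn to scale by distance from the start of *Il1r2* in kb (upper panel), with the median and range of RPKM of each member in each group below its gene (lower panel, groups offset sideways, axis logarithmic above 0.1 RPKM, neighbours not plotted). *Il1rl1* is the highest of the 6 in 3 groups, *Il1r2* is the highest in Tgfbr2-/- ILC2p, and *Il1r1* and *Il1rl2* between them are low in every group.

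What the loss of TGF-β signalling does to the members in ILC2p was asked by comparing Tgfbr2-/- with WT ILC2p, with the experiment in the model. *Il1rl1* was lower and *Il1r2* was higher in Tgfbr2-/- ILC2p, and the other members tested passed no threshold. *Il1rl1* was at 943, 1090, 1047 and 1215 CPM in WT, against 247, 220, 354 and 325 CPM in the Tgfbr2-/- libraries. Every Tgfbr2-/- library was below every WT library, a 3.88-fold lower level (log2 fold change -1.96, standard error 0.22, adjusted p = 0.00156, edgeR's quasi-likelihood test, Benjamini-Hochberg adjusted). The exact permutation of genotype within experiments gave p = 0.0556 (two-sided), the smallest that 36 arrangements allow.

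*Il1r2*, the decoy that binds IL-1 without signalling, had 2, 8, 28 and 19 counts in the WT ILC2p libraries, or 0.178, 0.465, 0.792 and 0.461 CPM. In the Tgfbr2-/- libraries it was at 222, 64.4, 228 and 174 CPM. The groups were far apart (log2 fold change 8.49, standard error 1.01, adjusted p = 0.00195, same edgeR test), with an exact permutation p of 0.0556. Genes were called at an adjusted p under 0.1 and a fold change over 1.5, and 2 of the 7 members tested were called, where 321 of 9242 genes tested (3.47%) were called in all. The median log2 change of all genes tested was -0.10. Each experiment alone gave the same directions, and *Il1r2* in experiment 2 was the 1 call left. *Il1rl1* changed by -2.14 (adjusted p = 0.236) in experiment 1 and by -1.81 (adjusted p = 0.136) in experiment 2, and *Il1r2* by 8.70 (adjusted p = 0.355) and 8.25 (adjusted p = 0.0557) by the same edgeR test on 4 libraries each.

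Genes of other cell types moved with the genotype in the same libraries. In bulk RNA fewer cells of a type and less RNA per cell cannot be told apart. Of 15 neutrophil markers listed 14 were in the files and tested, and 13 were called higher in Tgfbr2-/- ILC2p. Their summed level was 941, 1695, 1004 and 1551 CPM in WT against 99763, 84380, 84236 and 97108 CPM in Tgfbr2-/- ILC2p, and none of them was at 0 in a whole group. The most abundant was the granule gene *Mpo* in each WT library and *S100a8*, at 23770 to 29562 CPM, in each Tgfbr2-/- library. Of 9 macrophage and dendritic cell markers 5 were tested and 2 (*Lyz2* and *Cd14*) were called higher, with sums of 42.7, 42.5, 79.0 and 64.5 CPM in WT against 12687, 12221, 11296 and 12944 CPM in Tgfbr2-/- ILC2p. *Lyz2* was the most abundant of these in all 8 libraries, and *Flt3* was at 0 in both groups. Of 12 basophil and mast cell markers 5 were tested and 4 (*Prss34*, *Hdc*, *Mcpt8* and *Fcer1a*) were called higher. These summed to 300, 123, 238 and 154 CPM in WT, led by *Cpa3*, and to 2136, 2494, 2263 and 2784 CPM in Tgfbr2-/- ILC2p, led by *Hdc* or *Prss34*, while *Mcpt1*, *Mcpt2*, *Mcpt4* and *Tpsb2* were at 0 in every library. Of 9 NK cell and ILC1 markers 4 were tested and the granzyme gene *Gzma* was called higher (log2 fold change 8.66, standard error 1.90, adjusted p = 0.0568, edgeR). Their sum was 0.535, 18.4, 38.1 and 31.5 CPM in WT against 181, 133, 94.5 and 428 CPM in Tgfbr2-/- ILC2p, without overlap. It was led by *Klrb1c*, *Prf1*, *Ifng* or *Ncr1*, with *Klra8* at 0 in both groups and *Eomes* at 0 in Tgfbr2-/- ILC2p. Markers of T cells and of ILC3s were lower in sum. Of 10 T cell markers 3 were tested and *Lat*, the most abundant in all 8 libraries, was called lower (log2 fold change -1.58, standard error 0.37, adjusted p = 0.0716, edgeR). They summed to 550, 339, 347 and 424 CPM in WT against 144, 217, 133 and 167 CPM in Tgfbr2-/- ILC2p, again without overlap. Of 9 ILC3 markers 4 were tested and 0 called, with sums of 3658, 2333, 1994 and 1840 CPM in WT against 1521, 1634, 1071 and 1726 CPM in Tgfbr2-/- ILC2p. *Ltb* led these in every library, while *Il22*, *Il17a* and *Il17f* were at 0 in both groups. None of 3 epithelial markers and 1 B cell marker tested was called, and the sums of both lists overlapped between the genotypes. The gate took lineage-negative cells. The part of all these cells' RNA in the change of *Il1r2* or of *Il1rl1* was not tested.

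Per 1000 CPM of *S100a8*, *Il1r2* was at 3.03, 7.69, 4.74 and 5.89 CPM in WT, against 7.52, 2.71, 9.47 and 6.77 CPM in Tgfbr2-/- ILC2p. The ranges of this ratio overlapped, while *S100a8* itself was 295-fold higher in Tgfbr2-/- ILC2p (log2 fold change 8.20, standard error 0.40). In LP ILC2s *S100a8* was at most 1.01 CPM, and 10 of the 14 neutrophil markers were at 0 in the Tgfbr2-/- and 6 in the WT group, while *Il1r2* reached 16.8 CPM. Macrophage and dendritic cell markers summed there to 0.327 to 165 CPM in WT and 8.43 to 29.4 CPM in Tgfbr2-/- cells. The library with *Il1r2* at 16.8 CPM, WT replicate 2 of experiment 2, also had the highest *Il1b* (11.8 CPM) and *Il1a* (7.10 CPM) of the LP libraries. The part of such RNA in the level of *Il1r2* was not tested.

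The markers of ILC2s themselves fell in sum. The list holds 13 genes, of which *Il7r*, *Il2ra*, *Klrg1*, *Ly6a* and *Itgb7* encode antigens of the gates. It summed to 13380, 9492, 10805 and 8455 CPM in WT against 4722, 4690, 4389 and 6365 CPM in Tgfbr2-/- ILC2p, 2.08-fold lower (exact permutation p = 0.0556). Of 12 tested, *Gata3*, *Id2* and *Itgb7* were called lower and none higher, and the list's median log2 change was -1.01. Relative to this sum, *Il1rl1* stood at 70.5, 115, 96.9 and 144 CPM per 1000 CPM of markers in WT and at 52.4, 46.9, 80.8 and 51.0 in Tgfbr2-/- ILC2p. Within each experiment both Tgfbr2-/- values were below both WT values, and across experiments 1 Tgfbr2-/- library (80.8) was above 1 WT library (70.5). The difference was 1.83-fold in this ratio against 3.80-fold in the level of *Il1rl1* in the same permutation test, both at p = 0.0556. The ratio was chosen after seeing the data.

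**Figure D3:**
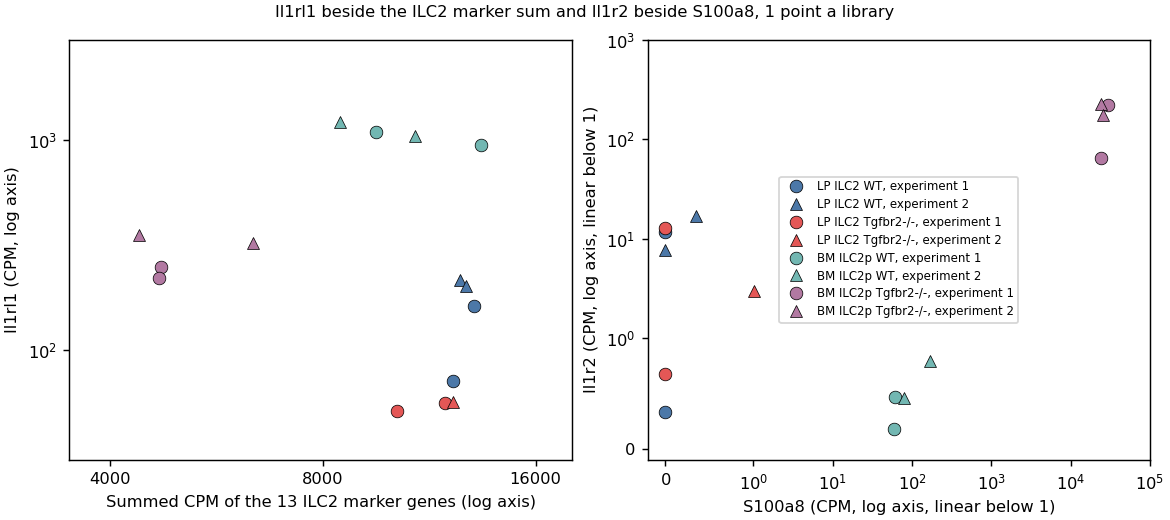
*Il1rl1* against the summed CPM of 13 ILC2 markers (left, both axes logarithmic) and *Il1r2* against *S100a8* (right, CPM, axes logarithmic above 1 and linear below), 1 point a library, coloured by group with the experiment as the symbol. Tgfbr2-/- ILC2p have lower values on both left axes and higher values on both right axes than WT ILC2p, whereas LP ILC2s have *Il1r2* up to 16.8 CPM beside *S100a8* near 0.

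The other members in ILC2p had values that differed as much within groups as between them. *Il1rap*, the accessory chain of ST2, was at 66.1, 8.43, 30.2 and 3.81 CPM in WT, against 98.0, 0.311, 101 and 0.348 CPM in Tgfbr2-/- ILC2p (log2 fold change 0.97, standard error 1.89, adjusted p = 0.953, same edgeR test). In each experiment 1 library of a group was far below the other, and it was replicate 2 in every case. *Il18r1*, the ligand-binding chain for IL-18, was at 5.89, 4.88, 20.6 and 16.7 CPM in WT, and in Tgfbr2-/- ILC2p it had 0 counts in both libraries of experiment 1 and was at 32.1 and 0.116 CPM in experiment 2. The Tgfbr2-/- values lay on both sides of the WT range (adjusted p = 0.892). Its partner *Il18rap* was at 86.1 and 143 CPM in WT against 38.8 and 73.2 CPM in Tgfbr2-/- ILC2p of experiment 1, and at 24.1 and 25.9 CPM in WT against 43.0 and 164 CPM in Tgfbr2-/- ILC2p of experiment 2. The genotypes did not overlap within either experiment but lay in opposite orders (log2 fold change -1.05, adjusted p = 1.0, and 1.95, adjusted p = 0.566, edgeR on each alone), and over both the ranges overlapped. *Sigirr* was at 0.357, 176, 102 and 60.8 CPM in WT against 136, 168, 22.7 and 76.0 CPM in Tgfbr2-/- ILC2p, and *Myd88* at 113, 0.0581, 149 and 99.5 CPM in WT against 0.0991, 0.932, 61.5 and 297 CPM in Tgfbr2-/- ILC2p. These 5 members had adjusted p-values of 0.892 to 1.0 and standard errors of 1.02 to 3.27 log2 units, so a change of the size seen for *Il1rl1* was not detectable at this spread.

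*Il1r1* and *Il1rl2* did not pass the filter on low counts in ILC2p. *Il1r1*, the signalling IL-1 receptor, had 0 counts in all 4 libraries of experiment 1, and in experiment 2 it was at 0.763 and 5.41 CPM in WT against 38.2 and 0.0773 CPM in Tgfbr2-/- ILC2p. In counts these were 27 and 223 in WT against 899 and 2 in Tgfbr2-/- ILC2p, so 1 library held most of the counts of each group. *Il1rl2*, the IL-36 receptor, had 0 counts in all 8 ILC2p libraries, where 3 counts, the limit that 0 allows, would be 0.0834 to 0.274 CPM.

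The same question in LP ILC2s gave lower *Il1rl1* in every Tgfbr2-/- library and no call by the main test. *Il1rl1* was at 71.3 and 162 CPM in WT against 51.0 and 56.0 CPM in Tgfbr2-/- ILC2s of experiment 1, and at 215 and 201 CPM in WT against 56.6 CPM in Tgfbr2-/- ILC2s of experiment 2. Every Tgfbr2-/- library was below every WT library, with a log2 fold change of -1.44 (standard error 0.32, unadjusted p = 0.00173, adjusted p = 0.877, edgeR's quasi-likelihood test). The exact permutation p was 0.0556, the smallest for 18 arrangements. Of 11981 genes tested none was called (0.0%), and 557 (4.65%) had an unadjusted p under 0.05, *Il1rl1* alone among the 9 members. DESeq2 called 338 genes and *Il1rl1* among them (log2 fold change -1.44, adjusted p = 0.00443), whereas limma on log2(RPKM + 1) and limma voom called 0 genes, with adjusted p-values of 0.721 and 0.309 for *Il1rl1*. The 13 ILC2 markers summed to 12214 to 13095 CPM in WT against 10176 to 12210 CPM in Tgfbr2-/- LP ILC2s, 1.10-fold lower, and *Il1rl1* relative to them was 2.32-fold lower (permutation p = 0.0556 for both).

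The remaining 8 members in LP ILC2s had no unadjusted p under 0.05. *Myd88* was at 174, 96.9, 113 and 134 CPM in WT against 137, 160 and 122 CPM in Tgfbr2-/- ILC2s, with overlapping values (log2 fold change 0.04, standard error 0.25). *Sigirr* was at 64.4, 104, 102 and 72.2 CPM in WT against 96.8, 156 and 111 CPM in Tgfbr2-/- ILC2s (log2 fold change 0.46, standard error 0.27, adjusted p = 0.898). The Tgfbr2-/- values of *Sigirr* overlapped the upper WT values. *Il18r1* (7.26 to 12.6 CPM in WT, 8.96 to 14.1 CPM in Tgfbr2-/-) and *Il1rap* (7.01 to 27.3 and 7.05 to 16.3 CPM) overlapped throughout. *Il18rap* was at 43.4 and 35.3 CPM in WT against 13.9 and 20.8 CPM in Tgfbr2-/- ILC2s of experiment 1, whereas in experiment 2 it was at 20.5 and 13.1 CPM in WT against 18.9 CPM in Tgfbr2-/- ILC2s, so the groups separated in 1 experiment only (over both, adjusted p = 0.898). *Il1r1* was at 0.385 to 7.58 CPM and *Il1r2* at 0.336 to 16.8 CPM over the 7 libraries without a split by genotype, and *Il1rl2* had counts in 2 of 4 WT and 2 of 3 Tgfbr2-/- libraries, at no more than 1.99 CPM.

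LP libraries of experiment 2 held more RNA of epithelial genes, and 7 of 11 such markers tested were called higher in it. With any one of the 7 libraries left out, 0 to 10 genes in all were called between the experiments in place of 117. The 12 epithelial markers summed to 14.6, 19.9, 48.0 and 69.9 CPM in experiment 1 and, led by *Agr2* or *Krt8*, to 244 and 576 CPM in WT against 1582 CPM in Tgfbr2-/- ILC2s of experiment 2. *Il1rl1* of WT ILC2s was also higher in experiment 2, and the 3 Tgfbr2-/- libraries, at 51.0 to 56.6 CPM, differed little between experiments. Within each experiment every Tgfbr2-/- library thus had a higher epithelial sum, and a lower level of *Il1rl1*, than every WT library. By genotype 0 of the 11 epithelial markers were called, with a median log2 change of 3.44 where that of all genes was -0.01. The NK cell and ILC1 markers also had higher estimates in Tgfbr2-/- LP ILC2s for all 7 tested, with a median log2 change of 1.47 and 0 called. They summed, led by *Gzma*, to 468 and 256 CPM in WT against 329 and 545 CPM in Tgfbr2-/- ILC2s of experiment 1, and to 224 and 293 CPM in WT against 959 CPM in experiment 2, with *Eomes* and *Klra8* at 0 in both groups. The part of the epithelial and of the NK cell and ILC1 RNA in the level of *Il1rl1* was not tested. Between the experiments 117 of 11981 genes (0.977%) were called in LP ILC2s and no member was, with *Il1rl1* 0.53 log2 units higher in experiment 2 (standard error 0.31, adjusted p = 0.499, edgeR). In ILC2p 0 of 9242 genes (0.0%) were called between experiments by edgeR (288 had an unadjusted p under 0.05), and no member was. DESeq2 called 397 genes there, *Myd88* among them (log2 fold change 4.49, adjusted p = 0.0942).

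**Figure D4:**
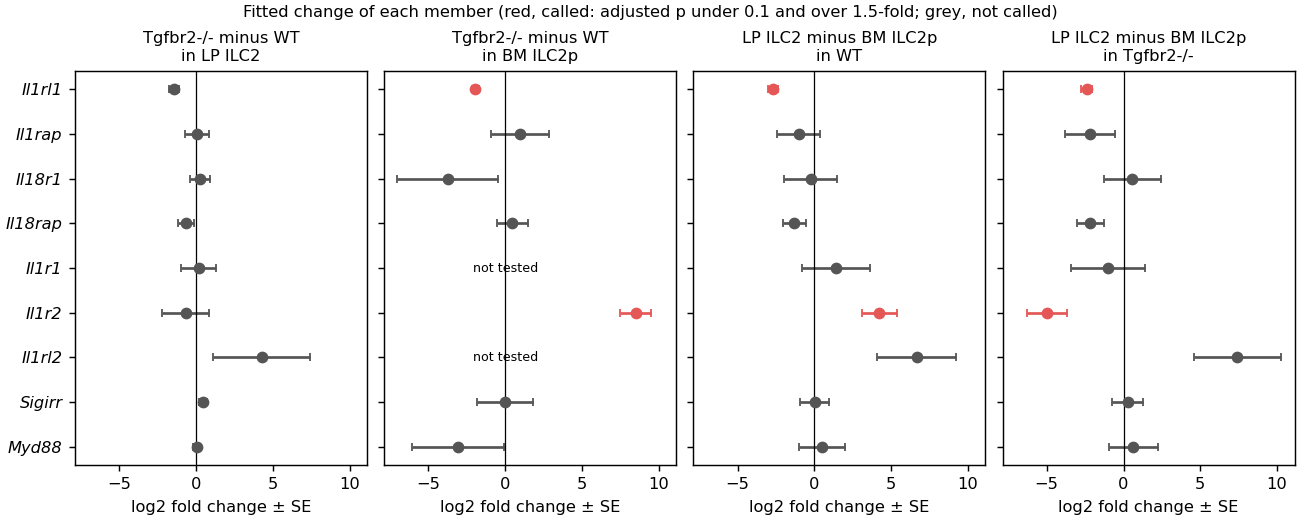
Fitted log2 fold change and standard error of each member in 4 comparisons from edgeR, with called members in red. *Il1rl1* lies left of 0 in all 4 panels and is called in 3, *Il1r2* is called in 3 with both signs, and the bars of the other members in ILC2p span several log2 units.

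Gut ILC2s were then set against their marrow progenitors within each genotype. In WT *Il1rl1* was 6.58-fold lower in LP ILC2s than in ILC2p (log2 fold change -2.72, standard error 0.33, adjusted p = 0.000211, edgeR), and in Tgfbr2-/- cells 5.26-fold lower (-2.39, standard error 0.36, adjusted p = 0.000931). No LP library of a genotype reached its ILC2p libraries. The level of WT LP ILC2s, 162 ± 64.6 CPM (SD, n = 4), was below that of Tgfbr2-/- ILC2p, 287 ± 63.3 CPM (SD, n = 4), without overlap, a pair of groups that was not tested. The call of *Il1rl1* was kept under all 24 alternatives in each genotype.

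*Il1r2* differed between the cell types in opposite directions. In WT it was higher in LP ILC2s (0.336 to 16.8 CPM) than in ILC2p (0.178 to 0.792 CPM), with overlapping ranges (log2 fold change 4.24, standard error 1.13, adjusted p = 0.0869, edgeR). This call was lost in 14 of 23 alternatives, with adjusted p-values up to 0.337. In Tgfbr2-/- cells it was lower in LP ILC2s (0.676 to 12.7 CPM) than in ILC2p (64.4 to 228 CPM) (log2 fold change -4.98, standard error 1.32, adjusted p = 0.0367). Without Tgfbr2-/- LP replicate 1 of experiment 1 or that of experiment 2 the adjusted p was 0.123. With each library left out in turn this log2 fold change lay between -6.56 and -4.45. In all, 302 of 12806 genes (2.36%) were called between the cell types in WT and 1492 (11.7%) in Tgfbr2-/- cells, against 2 of 9 members in each. *Il1rl2*, without a count in ILC2p, was not called in WT (adjusted p = 0.288) or in Tgfbr2-/- cells (adjusted p = 0.156), and neither was *Il18rap* (log2 fold change -1.31, adjusted p = 0.599 in WT and -2.16, adjusted p = 0.149 in Tgfbr2-/- cells). DESeq2 called *Il18rap* lower in LP ILC2s in Tgfbr2-/- cells (log2 fold change -2.31, adjusted p = 0.0148). The remaining 5 members had adjusted p-values of at least 0.971 in WT and 0.524 in Tgfbr2-/- cells by edgeR, although *Il18r1* was called higher in LP ILC2s of Tgfbr2-/- mice by limma voom (adjusted p = 0.0914) and by edgeR without Tgfbr2-/- ILC2p replicate 1 of experiment 2 (log2 fold change 7.82, adjusted p = 0.0151). Markers of other cell types differed between the cell types as well. Of 14 neutrophil markers tested 13 in WT and 14 in Tgfbr2-/- cells were called lower in LP ILC2s, where they summed to 0.769 to 15.2 CPM in WT and 7.68 to 21.9 CPM in Tgfbr2-/- cells. Of 7 basophil and mast cell markers 3 and 5 were called lower there, and of 6 macrophage and dendritic cell markers 0 and 2. Other lists were called higher in LP ILC2s, given for WT and then Tgfbr2-/- cells. Of 7 NK cell and ILC1 markers 2 and 3 were, and of 9 ILC3 markers 2 and 3, with 1 more lower in WT. Of 8 T cell markers 0 and 3 were, of 11 epithelial markers 0 and 4, and of 5 B cell markers 1 and 0. Of the 13 ILC2 markers 3 were called higher and 1 lower in LP ILC2s in WT, and 6 higher in Tgfbr2-/- cells. Their part in the differences of *Il1rl1* and *Il1r2* between the cell types was not tested.

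Whether the genotype acted differently in the 2 cell types was tested by an interaction term over the 15 libraries. For *Il1rl1* the fall in LP ILC2s was the smaller, with a difference of 0.51 log2 units (LP minus BM, standard error 0.41, adjusted p = 0.758, edgeR), so a difference between the cell types was not shown. The median difference of all genes was 0.31 on the same scale. For *Il1r2* the effects differed by more (LP minus BM -9.15, standard error 1.89, adjusted p = 0.0510). It was the 1 member called among the 9 fitted, where 127 of 12806 genes (0.992%) were called. The term gave no standard error for *Il1rl2*, which had no count in ILC2p, so it was no test of that gene. Without WT LP replicate 1 of experiment 1, Tgfbr2-/- LP replicate 1 of experiment 1 or Tgfbr2-/- LP replicate 1 of experiment 2, the adjusted p of *Il1r2* was 0.312, 0.166 and 0.322. With each library left out in turn its difference lay between -11.08 and -7.47. Without Tgfbr2-/- ILC2p replicate 1 of experiment 2, *Il18r1* was called as well (log2 difference 8.33, adjusted p = 0.0403). In the same term 4 of 14 neutrophil markers (median log2 difference -8.08) and 1 of 7 basophil and mast cell markers (median -7.85) were called lower. The NK cell and ILC1 list had 1 of 7 called lower and the ILC3 list 1 of 9 called higher. No marker of the other lists was called, and the part of these cells' RNA in the difference of *Il1r2* was not tested.

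The chains that work together were compared as ratios of RPKM, on the scale of log2(RPKM + 0.1). *Il1rl1* exceeded *Il1rap* in each of the 15 libraries. The ratio was 6.78, 21.2, 15.4 and 6.51 in WT and 4.56, 2.98 and 4.54 in Tgfbr2-/- LP ILC2s, all of the latter lower. In log2 units these were 3.45 ± 0.85 (SD, n = 4) and 1.98 ± 0.35 (SD, n = 3), and the difference taken within experiments was -1.48 (exact permutation p = 0.111). In ILC2p the ratio was 12.98, 108, 29.4 and 249 in WT and 2.36, 231, 3.27 and 325 in Tgfbr2-/- cells, following *Il1rap* rather than the genotype (p = 0.722, exact permutation). In the Tgfbr2-/- libraries at 231 and 325 *Il1rap* had 3 and 9 counts and an RPKM below the added 0.1, which makes up most of the denominator of these ratios. *Il18r1* to *Il18rap* was between 0.477 and 2.06 in LP ILC2s, and in ILC2p between 0.0325 and 2.33 in WT and 0.00437 and 0.877 in Tgfbr2-/- cells (exact permutation p = 0.167 and 0.111). *Il18r1* had 0 counts in 2 of the Tgfbr2-/- ILC2p libraries and 3 counts in the library of the lowest ratio, so the added 0.1 sets the ratio in these 3. The ratio of 2.33 came from the library in which the implied length of *Il18r1* was the shortest, 1773 bases, with 727 counts of *Il18r1* against 852 of *Il18rap*, so the range of these ratios is partly one of length. The signalling *Il1r1* stood below the decoy *Il1r2* in 13 of 15 libraries. In ILC2p *Il1r1* had 0 counts in 4 of 8 libraries and 2 counts in 1 more, where the added 0.1 sets the ratio. The ratio, 0.195 to 3.01 in WT and 0.000663 to 0.0474 in Tgfbr2-/- ILC2p (log2 difference -7.59, exact permutation p = 0.0556), therefore restates the level of *Il1r2* there and is no separate result. Over the 6 ratios tested the smallest Benjamini-Hochberg adjusted p was 0.222.

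**Figure D5:**
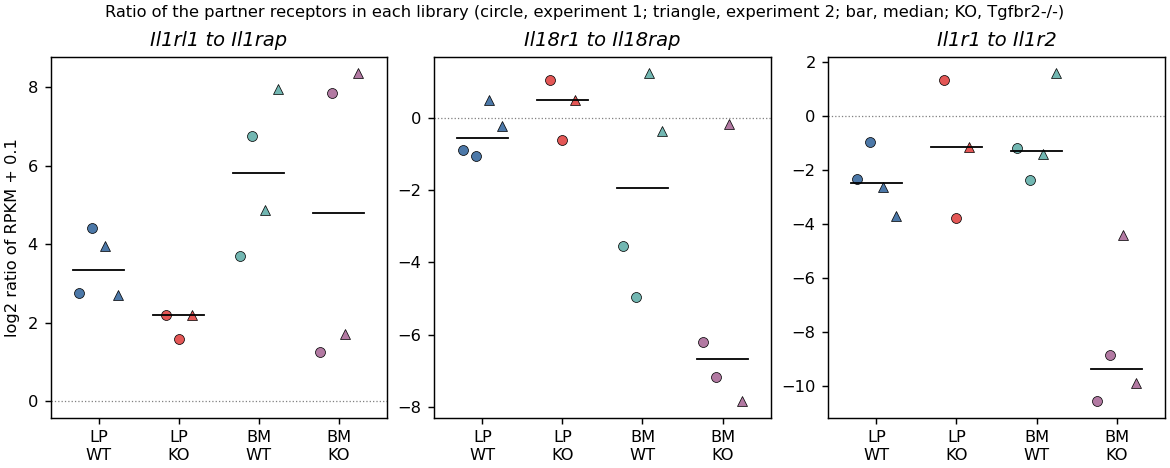
Log2 ratio of RPKM + 0.1 for the 3 receptor pairs in each library by group, with the experiment as the symbol and the median as a bar. The groups of *Il1rl1* to *Il1rap* separate by genotype in LP ILC2s and not in ILC2p, where the ratio spans 1.24 to 8.34, and *Il1r1* to *Il1r2* lies between -10.6 and -4.4 in Tgfbr2-/- ILC2p, where *Il1r1* had 0 counts in 2 of 4 libraries.

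Ligands and secreted inhibitors of the family came next. Of 16 names listed 11 were in the files and 2 were tested by genotype in ILC2p. *Il1f9*, which encodes IL-36γ, was called higher, from 0.268, 0.407, 1.498 and 0.654 CPM in WT to 172, 278, 221 and 284 CPM in Tgfbr2-/- ILC2p (log2 fold change 8.54, standard error 0.85, adjusted p = 0.000711, edgeR). It had no count in LP ILC2s and was called lower there than in ILC2p in WT (adjusted p = 0.0109) and in Tgfbr2-/- cells (adjusted p = 0.000136, edgeR). *Il1b*, which encodes IL-1β, was at 0.268 to 0.537 CPM in WT, against 10.9, 104, 214 and 0.541 CPM in Tgfbr2-/- ILC2p, and missed the threshold (log2 fold change 7.78, standard error 2.01, adjusted p = 0.105). *Il18bp*, the soluble IL-18 antagonist, was at 11.01 to 45.8 CPM in LP ILC2s. In ILC2p it was at 8.08 CPM in 1 WT library and 71.0 CPM in 1 Tgfbr2-/- library and at no more than 0.0485 CPM in the other 6. The part of the neutrophil RNA described above in the level of *Il1f9* was not tested.

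Downstream of the receptors, 1 gene was called by genotype. *Tnfaip3*, which encodes the NF-κB inhibitor A20, was at 2441 to 3431 CPM in WT against 580 to 969 CPM in Tgfbr2-/- ILC2p, a 3.50-fold lower level (log2 fold change -1.81, standard error 0.19, adjusted p = 0.00104, edgeR). In the same libraries the ILC2 markers were 2.08-fold lower in sum and the neutrophil markers higher, as given above, and their part in the level of *Tnfaip3* or in the cell type comparisons of Tgfbr2-/- cells was not tested. In LP ILC2s it was at 4166 to 5788 CPM in WT against 3943 to 4561 CPM in Tgfbr2-/- cells (log2 fold change -0.25, adjusted p = 0.898), and it was higher in LP ILC2s than in ILC2p in WT (log2 fold change 0.82, adjusted p = 0.0268) and in Tgfbr2-/- cells (5.29-fold, adjusted p = 1.36e-06). The genotype effects differed between the cell types by 1.56 log2 units (standard error 0.20, adjusted p = 0.00436, edgeR). It was the 1 gene called among 12 ubiquitin ligases and partners tested in ILC2p, whose median log2 change was -0.66. None of 2 further TIR adaptors, 5 IRAK kinases and inhibitors, 7 TAK1 and IKK genes, 12 MAP kinases and 9 NF-κB genes tested in ILC2p was called by genotype. Their median log2 changes were 1.77, -0.68, -0.28, -0.00286 and -0.67, where the median of all genes was -0.10 and 3.47% of them were called. In LP ILC2s none of the genes of these lists was called, as 0 of all 11981 genes (0.0%) were. Between the cell types *Nfkbia*, which encodes the NF-κB inhibitor IκBα, was called higher in LP ILC2s of Tgfbr2-/- mice (log2 fold change 1.15, standard error 0.24, adjusted p = 0.0128, edgeR).

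Among the most abundant genes of each list per length, given as medians over a group, *Nfkbia* was at 4593 RPKM in WT LP ILC2s and 2939 RPKM in WT ILC2p. The kinase gene *Irak2* was at 59.0 and 36.3 RPKM, and the adaptor *Tirap* was at 4.44 and 1.03 RPKM. *Irak2* showed the scatter of the receptors in ILC2p, between 1.04 and 218 CPM in the Tgfbr2-/- group. *Il1rapl1* and *Il1rapl2*, the neuronal members of the family, were not tested, and their summed level was at most 0.0468 CPM in any library.

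The genes around the receptor cluster were mostly too low to test in ILC2p. Of 6 listed neighbours outside the family, *Map4k4* and *Tgfbrap1* were tested by genotype in ILC2p and neither was called (log2 fold changes 1.05 and 0.88, standard errors 1.15 and 2.17). *Tgfbrap1* (chr1:43104114-43155467) lies far beyond the next of them, *Tmem182* (chr1:40862446-40912112), so it is no close neighbour of the cluster. *Map4k4* was at 10.7 to 35.1 CPM in WT against 8.89 to 69.8 CPM in Tgfbr2-/- ILC2p. *Slc9a2* had no count in ILC2p and reached 7.89 CPM in LP ILC2s, and was called between the cell types in Tgfbr2-/- cells only (adjusted p = 0.0968, edgeR, and 0.188 in WT). The interaction term gave no standard error for this gene. *Slc9a4* and *Mfsd9* had counts in LP ILC2s only, with 5.14 and 2.25 CPM as the highest values, both in the Tgfbr2-/- library of experiment 2. *Slc9a4* had no count in any other LP library, and *Mfsd9* had none in experiment 1. That library also had the highest epithelial sum, whose part in these levels was not tested. *Tmem182* had no count in any library.

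The genes whose level followed *Il1rl1* most closely were taken by Pearson's r of log2 CPM among 8900 genes with a mean of 10 CPM or more, as a description of libraries that share depth, genotype and experiment. Over the 7 LP libraries they were *Inpp4b* (r = 0.978), *Atxn10* (0.96), *Muc6* (0.956), *Mrgpra2b* (0.955) and *Angpt1* (0.953). Of these *Mrgpra2b* was at no more than 0.277 CPM in these libraries, and *Muc6* ranged from 0.0935 to 884 CPM. Over the 8 ILC2p libraries they were the IL-9 receptor gene *Il9r* (r = 0.99), *Txk* (0.985), *Znrf3* (0.977), *Fam168a* (0.977) and *Trip11* (0.976). The lowest values of these 5 in ILC2p were 0, 1.24, 0.198, 0 and 0.311 CPM, so each r includes a library near the floor. The part of the losses to below 1 CPM described above in these r values was not tested. Over all 15 libraries they were *Jun* (r = 0.878), *Herc1* (0.857), *Lztfl1* (0.833), *Zfp36* (0.833) and *Ppp1cc* (0.828). No gene was among the 5 in more than 1 of these sets, and by Spearman's rho *Inpp4b* stayed among the 5 in LP ILC2s, none of the 5 stayed in ILC2p, and *Jun* and *Ppp1cc* stayed over all libraries.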

How the data were processed

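RNA-seq of 7 LP ILC2 and 8 BM ILC2p libraries was used. Per its methods, the authors mapped reads to mm9 with TopHat (up to 15 hits per read), while Bowtie2 is named by the submitters' processing notes. Read counts per gene were deposited unnormalized, beside RPKM that the authors computed over exons with the read number given in each file's header. Strand is not given in the sources used here, and 205 of 24690 entries join genes that share reads. With several hits allowed, counts of similar genes are less certain.

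Groups, experiments and replicates followed the labels. Counts were tested with edgeR 4.0.16 (R 4.3.3) after TMM scaling and filterByExpr, by the quasi-likelihood F test with Benjamini-Hochberg adjustment over all genes tested. Genotype and experiment were in the model of each cell type, and the 4 groups of 15 libraries, without the experiment, in that of cell types. The interaction model held 4 experiment terms and a genotype term in each cell type. Standard errors were taken as |log2 fold change| over the root of F. Single members and receptor ratios (log2 of RPKM + 0.1) were tested by exact two-sided permutation of genotype within experiments. Named are all 9 members, cluster neighbours, listed pathway genes that were called or among the 3 highest of a list, the 5 genes most like *Il1rl1*, and marker genes. The members and lists were chosen with earlier results of these data known. The models were tested on simulated counts with 1 fixed dispersion for all genes. These lacked the losses to below 1 CPM seen in ILC2p, so the simulation does not cover that spread. Alternatives were DESeq2 1.42.0, limma 3.58.1 (log2(RPKM + 1), or voom with quality weights), other scalings and filters, a stricter threshold, other models, each experiment alone and each library left out. Ratios to marker genes and the fit without marker genes were added after seeing the data. Positions are from GENCODE on NCBIM37, and promoter sequences from RefSeq. Figures were drawn with matplotlib 3.10.9. Flow cytometry and RT-PCR were not analysed here.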

Additional observations from a re-analysis of the deposited data

Results flagged for a closer look

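In the Tgfbr2-/- ILC2p, *Il18r1* was at 32.1 CPM in replicate 1 of experiment 2, far from the next highest value of 0.116 CPM. *Il1r1* was at 38.2 CPM in the same library, with 0.0773 CPM next. In the WT ILC2p, *Il1r1* was at 5.41 CPM in replicate 2 of experiment 2, with 0.763 CPM next. These 3 stood apart among 34 sets of values examined, those of the 9 members and 3 receptor ratios in each of the 3 groups of 4 libraries less 2 sets that were 0 throughout, where about 1 in 20 would by chance. The genotype effect on *Il1r2* differed between the cell types by a tested -9.15 log2 units (LP minus BM, adjusted p = 0.0510, edgeR).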

How the results depend on the processing

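*Il1rl1* kept its direction under every alternative run in each comparison. By genotype in ILC2p its call was lost in experiment 1 alone (-2.14, adjusted p = 0.236) and experiment 2 alone (-1.81, adjusted p = 0.136), which hold 4 libraries each, and relative to the ILC2 marker sum, a setting added after seeing the data, its difference was -0.87 instead of -1.93. In LP ILC2s DESeq2 alone called it (-1.44, adjusted p = 0.00443). The edgeR and limma alternatives there gave adjusted p-values of 0.186 to 1.0.

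Members called by genotype in ILC2p numbered 2, but 1 with at least 10 counts in every library, 0 in experiment 1 alone and 1 in experiment 2 alone. Leaving the other cell types' marker genes out of that fit, added after seeing the data, gave 2, but it does not change the members' own counts. DESeq2 called 1 member by genotype in LP ILC2s and 1 by experiment in ILC2p. Between the cell types in WT 1 member was called at an adjusted p under 0.05, by limma on RPKM, by voom, without a filter, with at least 10 counts and with 8 groups, and leaving out a library gave 1 to 2. In Tgfbr2-/- cells 1 was called with at least 10 counts, 3 by DESeq2 (*Il18rap* added) and by voom (*Il18r1* added), and 1 to 3 without a library. For the interaction it was 0 at an adjusted p under 0.05 and with at least 10 counts, and 0 to 2 without a library. *Il1r2* lost its call by cell type in WT without WT LP replicate 1 of experiment 1, either WT LP replicate of experiment 2, Tgfbr2-/- LP replicate 1 of experiment 2, any WT ILC2p library, or Tgfbr2-/- ILC2p replicate 1 of experiment 2. The causes were not tested.

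Genes called over all genes depended on the tool. By genotype in LP ILC2s 0 became 338 by DESeq2 and 3 without a filter. In ILC2p 321 became 1229 by DESeq2, 499 by voom, 199 with at least 10 counts, and 38 and 77 in experiments 1 and 2 alone. By experiment 117 in LP ILC2s ranged from 5 to 1347 and 0 in ILC2p from 0 to 397. Between cell types 302 in WT ranged from 98 to 950, 1492 in Tgfbr2-/- cells from 412 to 2529, and the 127 of the interaction from 68 to 1518. Without single libraries, 117 ranged from 0 to 10, 321 from 179 to 319, 302 from 156 to 370, 1492 from 596 to 1904 and 127 from 14 to 407.

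Over all genes compared, same-numbered replicates did not deviate together (r = -0.0728 in LP, -0.00556 and -0.0807 in ILC2p), so numbers were not taken as pairs. *Il1rap* in ILC2p did split by replicate number, as given above. With the replicate block 0 genes and 0 members were called in LP ILC2s (*Il1rl1* -1.07), and 175 genes and 2 members in ILC2p (*Il1rl1* -1.96, adjusted p = 0.0171, *Il1r2* 8.41, adjusted p = 0.0200, edgeR).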
